A study of Mus musculus with 1615 samples.

Results

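R-spondins, WNT ligands and secreted WNT inhibitors were followed across the cell classes of the mouse colon, in 10 genes of the 46517 gene identifiers counted. The members were taken by symbol: the R-spondins Rspo1, Rspo2 and Rspo3, the ligands Wnt2b, Wnt4 and Wnt5a, and the inhibitors Wif1, Dkk3, Sfrp1 and Frzb. All 10 were found in the deposited counts, and none was used to group the cells. The 1615 cells were sorted one by one from 11 mice and made into Smart-Seq2 libraries, which cover full-length cDNA and carry no molecular identifiers.

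The mice carried fluorescent reporters named after genes of contractile, perivascular and fibroblast cells, with no treatment given in the labels. The dual line ACTA2GFP:CSPG4dsRED gave mouse 20GG79:1, a female with 22.2% of the cells, mouse 20GG79:6, a male with 15%, and mouse 20GG95:3, a female with 31.3%. The other 8 mice were males. PDGFRbGFP gave 17E61:24 with 12.3% of the cells, 19CB4:5 with 80 cells and 18CB155:7 with 9, PDGFRaH2bGFP gave 18CB109:10 with 28 cells and 18CB39:3 with 63, CSPG4dsRED gave 19CB27:3 with 7.24% of the cells, and ACTA2GFP gave 19CB34:7 with 5 cells and 19CB38:5 with 8. Ages are labelled as 8 to 30 weeks for all of them. The series' design text speaks of males only and of a narrower span of ages, and the labels of the samples are used here. Each mouse carried 1 line, so differences between lines are also differences between mice. In most cases the mouse and the plate cannot be told apart. The PDGFRaH2bGFP mice, whose line is named after a fibroblast gene, gave 23 and 53 blood endothelial cells and no fibroblast. The tissue is labelled as colon although the protocol text speaks of the heart, and 58 cells of the epithelium class carried gut markers.

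Cells were clustered into 21 clusters and these were named by marker genes, so each class is only like the cell type whose name it bears. Visceral smooth muscle numbered 548 cells, vascular smooth muscle 96, lymphatic endothelium 78, epithelium 58, glia 41 and immune cells 30, while pericytes made up 11.3%, blood endothelium 22.2% and fibroblasts 13.7% of all cells. Visceral muscle was split by 2 small marker panels into 430 F2r-panel cells (F2r, Bdkrb2) and Des-panel cells (Des, Ano1), which were 21.5% of them. Fibroblasts were split into subepithelial-panel cells (F3, Foxl1, Sox6, Ednrb, Bmp7), 47.3% of them, and Cd81-panel cells (Cd81, Cd34, Pi16 and others), 52.7%. Kit, the defining receptor of interstitial cells of Cajal, stayed at a mean of 0.148 CPM in the Des-panel cells, whose panel gene Ano1 such cells also use. Levels are in CPM, a gene's count scaled to a common total of gene counts, after counts were summed per mouse and class, the mouse is the replicate, and a mouse entered a class with at least 5 cells. Gene counts per cell ran from 45388 to 1046988. Cluster 20, 31 pericyte-named cells of mouse 20GG95:3, scored 2.84 for pericyte and 2.82 for visceral muscle markers. A score is the markers' mean log2(CPM + 1) in the cluster minus that in all other cells. Cluster 19, 20 F2r-panel cells of that mouse, was low on both visceral panels. Results were therefore also computed without these 2 clusters.

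WNT proteins are secreted, lipid-modified ligands that bind Frizzled receptors and, in the canonical branch, keep beta-catenin from being degraded. R-spondins amplify that signal by binding LGR receptors and removing the ubiquitin ligases that clear Frizzleds from the cell surface, while inhibitors such as Wif1 and the Sfrp family bind WNT proteins outside the cell. In the intestine, mesenchymal cells around the crypts are known as a source of R-spondins and canonical WNT ligands for stem cells, and Wnt5a is known as a mostly non-canonical ligand of the stroma.

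The 3 R-spondins differed in how much of them was found. Rspo1, which in other organs is known from the ovary, reached at most 15 CPM, in 1 of 5 Cd81-panel fibroblasts of mouse 20GG79:6, and at most 0.542 CPM in any class other than the Cd81-panel fibroblasts. Rspo2, known from limb and lung development, reached 18.7 CPM in the Des-panel muscle of mouse 20GG95:3, from 4 of 100 cells, and 14.6 CPM in the subepithelial-panel fibroblasts of mouse 20GG79:6. A single cell gave 98% of the latter. Levels of Rspo1 and Rspo2 thus rest on a handful of cells.

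Rspo3, the R-spondin best known from intestinal stroma and lymphatics, had its highest level in Des-panel visceral muscle. It stood there at 295.5 CPM in mouse 20GG79:1, 168.7 CPM in 20GG79:6 and 266.5 CPM in 20GG95:3, a mean of 243.6 CPM ± 66.4 (SD, n = 3 mice). The next classes in order were Cd81-panel fibroblasts with a mean of 38.2 CPM ± 64 (SD, n = 4), lymphatic endothelium with 24.7 CPM ± 28.1 (SD, n = 4) and pericytes with 11 CPM ± 8.99 (SD, n = 3). The range over mice in Des-panel muscle, 168.7 to 295.5 CPM, lay above that of every other class, whose highest value was 133.5 CPM in the Cd81-panel fibroblasts of mouse 19CB4:5. That value came from 5 cells, and 97.4% of its counts from 1 of them.

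Cd81-panel fibroblasts, lymphatic endothelium, pericytes and F2r-panel muscle overlapped one another in Rspo3. In lymphatic endothelium Rspo3 stood at 48.9 CPM in mouse 17E61:24, 49.3 in 19CB27:3, 0.813 in 18CB39:3 and was not counted in 18CB109:10. The mice with the higher lymphatic values gave 41 and 19 cells and the lower ones 9 and 5. Vascular muscle held 1 count of Rspo3 in 95 cells, and mouse 20GG79:1 with 0 counts allows up to 2.40 CPM. Of the exon bases of Rspo3, 13.1% also belong to the antisense gene Gm48159, and 4.58% of those of Wnt5a to the antisense gene Gm2670. The counting is not stated to use strand, so reads there cannot be assigned to one partner.

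Wnt2b, a canonical ligand, was found in visceral muscle and fibroblasts and was close to 0 elsewhere. It averaged 360.3 CPM ± 142.5 (SD, n = 3) in Des-panel muscle, 160.5 CPM ± 110.5 (SD, n = 4) in Cd81-panel fibroblasts, 64.5 CPM ± 87.9 (SD, n = 2) in subepithelial-panel fibroblasts and 62 CPM ± 49.1 (SD, n = 3) in F2r-panel muscle. These 4 classes overlapped their neighbours in the order. F2r-panel muscle, at 26.8 to 118.1 CPM, lay above the next class, and the remaining 7 classes had means of at most 2.0 CPM. The subepithelial-panel fibroblasts were split between mice, with 2.30 CPM in 20GG79:1 and 126.7 CPM in 20GG79:6.

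Wnt5a had its highest level in subepithelial-panel fibroblasts. It stood at 919 CPM in mouse 20GG79:1 and 485.4 CPM in mouse 20GG79:6, the only mice with such cells. The epithelium class came next only through mouse 20GG79:6, where 6 cells gave 649 CPM and 1 cell gave 90% of the counts, while the other 3 mice lay at 4.10 CPM or below. In those 6 cells the 8 fibroblast markers summed to 7052 CPM, against 96.4 to 3378 CPM in the epithelium class of the other mice. Their part in the value was not tested. F2r-panel muscle followed with 76.3 CPM ± 17.6 (SD, n = 3), then Cd81-panel fibroblasts with 31.8 CPM ± 23.1 (SD, n = 4) and Des-panel muscle with 26.2 CPM ± 11.8 (SD, n = 3), which overlapped.

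Wnt4, a ligand known from kidney and gonad development, was sparse. Its highest mean, 89.6 CPM ± 140.6 (SD, n = 4), was in Cd81-panel fibroblasts, and rested on 297.8 CPM in mouse 19CB38:5, where 1 of 5 cells gave 99.8% of the counts. In the 91 Cd81-panel cells of mouse 20GG79:1 it stood at 51.8 CPM and was found in 43 cells. Subepithelial-panel fibroblasts held 34.4 and 11.6 CPM.

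Wif1, which binds WNT ligands through its own WIF domain, had its highest level in subepithelial-panel fibroblasts. It stood there at 407.2 CPM in mouse 20GG79:1 and 160.4 CPM in mouse 20GG79:6, and the highest value in any other class and mouse was 6.86 CPM, in the F2r-panel muscle of 20GG79:6. Low Wif1 counts were common in other classes of the mice that gave subepithelial-panel cells. For example, 38.2% of the F2r-panel cells of 20GG79:1 and 33 of 61 of 20GG79:6 held at least 1 count. In mouse 20GG95:3, which gave no subepithelial-panel cell, 0.922% of the F2r-panel cells and 0 of 100 Des-panel cells did. The 0 counts in Des-panel cells allow up to 0.182 CPM, and 98.7% of the F2r-panel counts of that mouse came from 1 cell.

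Dkk3, a Dickkopf family member whose action on WNT signalling is debated, was the most abundant member. F2r-panel muscle held a mean of 1389 CPM ± 151.6 (SD, n = 3), subepithelial-panel fibroblasts 1347 CPM ± 205.6 (SD, n = 2), Des-panel muscle 978 CPM ± 49.7 (SD, n = 3), Cd81-panel fibroblasts 651 CPM ± 202.8 (SD, n = 4), and pericytes 191.5 CPM ± 42.4 (SD, n = 3). The top pair overlapped, while the ranges of subepithelial-panel fibroblasts, Des-panel muscle and Cd81-panel fibroblasts each lay above the next. Vascular muscle was low, with 18.4 and 22.8 CPM. In blood endothelium Dkk3 ran from 0.666 to 32.4 CPM over 6 mice with a median of 4.83. All 68 blood endothelial cells of mouse 19CB4:5 held Dkk3, at 31.1 CPM, and the 8 fibroblast markers summed to 1325 CPM there. Mouse 20GG79:6 had the highest Dkk3, 32.4 CPM, with a marker sum of 633 CPM, and the other 4 mice had sums of 72.8 to 218.5 CPM. The markers' part in the Dkk3 values was not tested.

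Sfrp1, a secreted Frizzled-related protein, was highest in glia, with 1993 CPM in mouse 19CB27:3 and 750 CPM in 20GG79:6. Cd81-panel fibroblasts followed with 626 CPM in 20GG79:1, 410.9 in 19CB4:5, 330.02 in 20GG79:6 and 46.1 in 19CB38:5. Glia lay above them in both mice. F2r-panel muscle, subepithelial-panel fibroblasts and Des-panel muscle overlapped at means of 126.5, 111.2 and 85.9 CPM. Frzb, known also as Sfrp3 and best described in cartilage, ran in Cd81-panel fibroblasts from 1.85 CPM in 19CB38:5 over 14.8 in 19CB4:5 and 92.4 in 20GG79:1 to 361.5 in 20GG79:6, and stood at 69.5 and 164.02 CPM in glia. These 2 classes overlapped, and 1 glial cell of 19CB27:3 gave 99.1% of its Frzb counts.

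**Figure D1:**
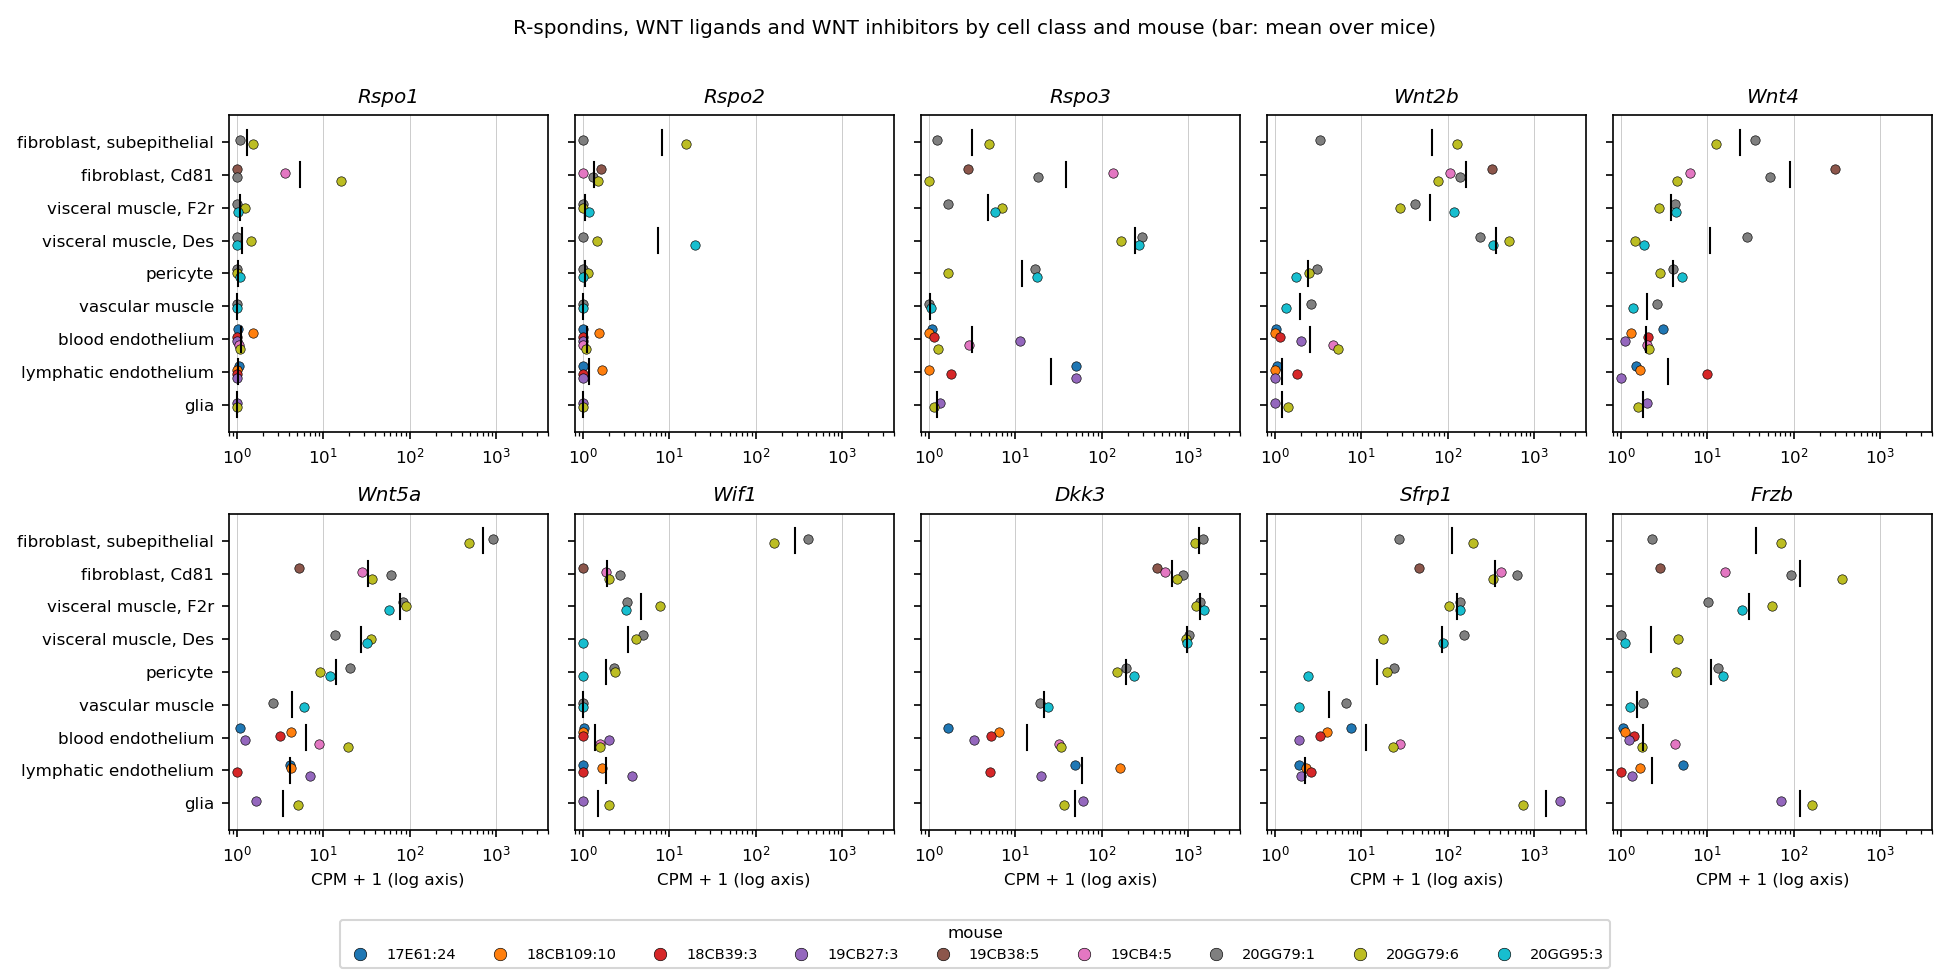
CPM plus 1 on a log axis for each of the 10 members (panels) in 9 cell classes (rows), with 1 point per mouse and class of at least 5 cells and a bar at the mean over mice. Rspo3 stands apart in Des-panel muscle at 168.7 to 295.5 CPM, Wif1 in subepithelial-panel fibroblasts at 160.4 and 407.2 CPM, and Dkk3 is at 431.9 CPM or above in all fibroblast and visceral muscle classes.

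Scaled by exon length, so that genes can be set side by side, mean levels were 413.6 CPM per kb for Dkk3 in F2r-panel muscle, 313.7 for Sfrp1 in glia, 116.9 for Wif1 and 89.7 for Wnt5a in subepithelial-panel fibroblasts, and 85.8 for Wnt2b and 78.8 for Rspo3 in Des-panel muscle. Frzb peaked at 36.3 CPM per kb in Cd81-panel fibroblasts, below the means of Wnt5a, Wnt2b and Rspo3. The mice of Wif1, at 66.1 and 167.8 CPM per kb, overlapped those of Wnt5a, Wnt2b and Rspo3 in the classes where these peaked.

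Upstream sequences from RefSeq (GRCm38.p6) were available for 5 of the 10 members, among them Wif1 and Wnt2b, whose levels separate the subtypes. They are shown 5′ to 3′ on the gene's strand, as far as they lie upstream of the GENCODE start of the gene. Capitals mark a GC box (GGGCGG) or a TATA motif (TATAAA) on either strand.
Wif1, chr10:121033754-121033959, plus strand: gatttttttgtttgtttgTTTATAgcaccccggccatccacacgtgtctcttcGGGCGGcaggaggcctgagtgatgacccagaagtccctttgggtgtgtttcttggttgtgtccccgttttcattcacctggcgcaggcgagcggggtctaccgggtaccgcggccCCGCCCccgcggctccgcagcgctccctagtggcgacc
Wnt2b, chr3:104961922-104961959, minus strand: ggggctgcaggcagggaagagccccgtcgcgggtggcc

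The searched window was the 250 bases before the RefSeq start. Wif1 held 2 GC boxes, the nearer one starting 82 bases before the start, and 1 reverse TATA motif near the far end of the window, away from where TATA boxes usually lie. Wnt2b held 3 GC boxes, of which the nearest pair, starting 78 and 73 bases before the start, overlapped by 1 base. All 3 lie in the stretch that is inside the gene in GENCODE and is not shown. GC content was 62.8% for Wif1 and 80.8% for Wnt2b against a median of 52.4% over 32851 promoters. A GC box was present in 32.7% and a TATA motif in 12.4% of those windows. The TCF/LEF motif CTTTGAT, present in 3.21% of all windows, the forkhead motif TGTTTAC in 3.17% and the CArG box in 1.47% were in none of the 5 members' windows. That says only that these letters are not in these windows.

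Within visceral muscle, Rspo3 and Wnt2b were higher in Des-panel than in F2r-panel cells in each of the 3 mice. Rspo3 stood in F2r-panel cells at 0.652 CPM in mouse 20GG79:1, 6.02 in 20GG79:6 and 4.79 in 20GG95:3, against 295.5, 168.7 and 266.5 CPM in the Des-panel cells of the same mice. The groups did not overlap, and Rspo3 rose by 6.60 on the log2 scale (SE 0.94, adjusted p = 0.000224, edgeR's quasi-likelihood test with the mouse as a block and Benjamini-Hochberg adjustment). Log2 differences given beside an SE are that test's fitted log2 fold changes, first class minus second. The SE was worked back from the test, as the size of the log2 fold change over the square root of its F statistic. It is not a spread measured over mice. Wnt2b stood at 41.2, 26.8 and 118.1 CPM in F2r-panel and 235.6, 515.5 and 329.7 CPM in Des-panel cells, which again did not overlap, and rose by 2.99 on the log2 scale (SE 0.65, adjusted p = 0.0261). These were 2 of the 8 members tested, and none was called lower, where 0.451% of 13078 genes were called in either direction, 0.283% higher in Des-panel and 0.168% higher in F2r-panel cells.

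The other 6 members tested did not pass in that comparison. Wnt5a was lower in Des-panel cells of each mouse, at 12.7, 34.6 and 31.4 CPM against 82.6, 89.9 and 56.4, with a log2 difference of -1.36 (SE 1.06, adjusted p = 0.848). Frzb was at 0 to 3.55 CPM in Des-panel and 9.11 to 55.2 CPM in F2r-panel cells, a log2 difference of -5.87 (SE 1.98, adjusted p = 0.346). Dkk3 was at 938 to 1033 CPM in Des-panel and 1235 to 1538 CPM in F2r-panel cells, a log2 difference of -0.24 (SE 0.33). Wnt5a, Frzb and Dkk3 did not overlap between the subtypes and missed the adjusted threshold, and Frzb passed under DESeq2 (adjusted p = 0.00195). With 2 or 3 mice a side, groups can separate without any difference. The share of all genes without overlap was not counted, here or in the other comparisons, so a lack of overlap only describes these mice. The median log2 fold change was -0.50 over the tested members and -0.43 over all genes.

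In mouse 20GG95:3, which lay on 2 plates, Rspo3 in Des-panel cells stood at 181.9 CPM on plate 053s and 342.4 CPM on the other plate, against 7.63 and 2.11 CPM in F2r-panel cells. Wnt2b stood at 330.9 and 328.7 CPM against 91.5 and 143.1 CPM. Both plates showed the order of the whole mouse. The Rspo3 call was lost without that other plate (adjusted p = 0.0825), and the Wnt2b call was lost in 7 of 14 alternatives, among them without the mouse as a block (adjusted p = 0.224), without either plate (0.0870 and 0.148), without clusters 19 and 20 (0.0647), and without mouse 20GG79:1 (0.150) or 20GG79:6 (0.0720). The 8 pericyte markers summed to 2706 to 3952 CPM in Des-panel and 745 to 1156 CPM in F2r-panel cells. Among them Rgs5 stood at a mean of 1598 CPM in Des-panel cells, and Higd1b and Cox4i2 at 0.203 and 0.270 CPM. The rest of the sum came from the other markers of the list, whose single values are not given here. The part of the pericyte markers in the difference was not tested.

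Between the fibroblast subtypes, Wnt5a and Wif1 were higher and Frzb was lower in subepithelial-panel cells, in both mice that held them. Wnt5a stood at 919 and 485.4 CPM in subepithelial-panel and 60.2 and 35.4 CPM in Cd81-panel cells of 20GG79:1 and 20GG79:6, a log2 difference of 3.75 (SE 0.59, adjusted p = 6.1e-05). Wif1 stood at 407.2 and 160.4 CPM against 1.70 and 0.999 CPM, a log2 difference of 7.62 (SE 1.13, adjusted p = 1.6e-05). Frzb stood at 1.31 and 70.1 CPM against 92.4 and 361.5 CPM and fell by 4.29 on the log2 scale (SE 1.00, adjusted p = 0.0193). The groups of Wnt5a and Wif1 did not overlap, and those of Frzb did not either.

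Of the 8 members tested between the fibroblast subtypes, 2 were called higher and 1 lower, where 0.43% of 13732 genes were called in either direction, 0.102% higher in subepithelial-panel and 0.328% higher in Cd81-panel cells. Sfrp1 stood at 26.4 and 195.9 CPM in subepithelial-panel and 626 and 330.02 CPM in Cd81-panel cells, with a log2 difference of -2.76 (SE 0.73, adjusted p = 0.0684). Wnt2b changed order between the mice, from 2.30 against 139.1 CPM in 20GG79:1 to 126.7 against 76.4 CPM in 20GG79:6. The median log2 fold change was -0.37 over the tested members and 0.30 over all genes.

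Mouse 20GG79:6 gave 5 Cd81-panel cells, and 1 of them gave 63.7% of their Frzb counts. Without the mouse as a block edgeR called 0 genes (3.17% of them had an unadjusted p under 0.05), and adjusted p was 1.00 for Wnt5a, 0.659 for Wif1 and 1.00 for Frzb, while 1 spread shared over all classes gave 0.300 for Wnt5a and 0.727 for Frzb. With either mouse left out, none of the 3 kept its call (adjusted p 0.673 to 1.00), with the lone mouse tested on the spread of all classes. The 8 visceral muscle markers summed to 3036 and 2660 CPM in subepithelial-panel and 1345 and 744 CPM in Cd81-panel cells, and their part in the differences was not tested.

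Set against visceral muscle as a whole, fibroblasts of the same 2 mice, with both subtypes summed, held more Wnt5a and Wif1. The excess lay in the subepithelial-panel cells. Cd81-panel fibroblasts reached at most 60.2 CPM of Wnt5a and 1.70 CPM of Wif1 in any mouse, below the visceral muscle of these 2 mice. Wnt5a stood at 339.7 and 444.96 CPM in fibroblasts and 78.6 and 83.3 CPM in visceral muscle, a log2 difference of 2.25 (SE 0.27, adjusted p = 0.0260). Wif1 stood at 133.7 and 146.1 CPM against 2.34 and 6.41 CPM, a log2 difference of 5.16 (SE 0.54, adjusted p = 0.0196). Neither overlapped. These were 2 of 8 members tested, where 1.38% of 15977 genes were called, 0.651% higher in fibroblasts and 0.726% higher in muscle, and no member was called higher in muscle.

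Sfrp1, at 431.2 and 207.97 CPM in fibroblasts against 137.8 and 93.7 CPM in muscle, had a log2 difference of 1.38 (SE 0.27, adjusted p = 0.0967). Dkk3 was at 1081 and 1161 CPM against 1374 and 1200 CPM, a log2 difference of -0.21 (SE 0.18, adjusted p = 0.813). The Wnt5a call was lost with 1 spread shared over all classes (adjusted p = 0.372), and with either mouse left out both calls were lost (0.811 and 0.902 for Wnt5a, 0.580 and 0.412 for Wif1, without 20GG79:1 and 20GG79:6). The median log2 fold change was 1.64 over the tested members and 0.00 over all genes.

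Vascular muscle held little of any member, and 4 of the 8 tested were higher in visceral muscle of the 2 mice that gave both. Dkk3 stood at 1374 and 1360 CPM in visceral and 18.4 and 22.8 CPM in vascular muscle of 20GG79:1 and 20GG95:3, a log2 difference of 5.99 (SE 0.44, adjusted p = 5.8e-38). The fit had 1 residual degree of freedom, so this p leans on the spread that edgeR shares among genes. In the vascular muscle of 20GG95:3 Dkk3 stood at 37.3 CPM on plate 053s and 3.34 CPM on the other plate. Wnt2b stood at 52.2 and 183.5 CPM against 1.60 and 0.325 CPM, a log2 difference of 7.32 (SE 1.64, adjusted p = 0.000528). Sfrp1 stood at 137.8 and 123.001 CPM against 5.61 and 0.909 CPM, a log2 difference of 5.83 (SE 1.35, adjusted p = 0.000977).

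The fourth was Rspo3, at 17.3 and 85.7 CPM against 0 and 0.0649 CPM, with 1 count in vascular muscle in all and an adjusted p of 0.0459 from edgeR. The ratio of the pooled levels was 882, with an exact 95% interval of 158.3 to 34860 for counting error alone. The visceral level of Rspo3 differed by subtype in these 2 mice, at 0.652 and 4.79 CPM in F2r-panel and 295.5 and 266.5 CPM in Des-panel cells. None of the 4 members overlapped between the classes, but the share of all genes without overlap in these 2 mice was not counted. Among 14717 genes, 3.39% were called, 1.8% higher in visceral and 1.59% higher in vascular muscle. The median log2 fold change was 5.91 over the tested members and 0.59 over all genes. The Rspo3 call was lost in 8 of 12 alternatives and those of Wnt2b (adjusted p = 0.0730) and Sfrp1 (0.0987) without the mouse as a block, and mouse 20GG79:1 gave 5 vascular cells. With that mouse left out all 4 calls were lost (adjusted p 0.171 to 0.303), as they were without 20GG95:3 (0.352 to 0.872), Dkk3 included at 0.303 and 0.352.

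Pericytes, cells that wrap small vessels, held less Wnt2b and Dkk3 than visceral muscle in all 3 mice. Wnt2b stood at 2.09 CPM in 20GG79:1, 1.46 in 20GG79:6 and 0.737 in 20GG95:3, against 52.2, 84.7 and 183.5 CPM in visceral muscle, and fell by 6.12 on the log2 scale (SE 0.90, adjusted p = 0.0346). Dkk3 stood at 193.1, 148.3 and 233.05 CPM against 1374, 1200 and 1360 CPM and fell by 2.84 (SE 0.22, adjusted p = 0.00661). Neither overlapped. These were 2 of 8 members tested, with none higher in pericytes, where 1.59% of 13977 genes were called in either direction, 0.83% higher in pericytes and 0.758% higher in visceral muscle.

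Rspo3 was at 15.7, 0.663 and 16.7 CPM in pericytes against 17.3, 25.3 and 85.7 CPM in visceral muscle, a log2 difference of -2.50 (SE 1.20, adjusted p = 0.468). In mouse 20GG79:1 a single pericyte gave 99.4% of the Rspo3 counts. The Dkk3 call was lost with 1 spread shared over all classes (adjusted p = 0.0830), and the Wnt2b call in 5 of 14 alternatives, among them each mouse left out in turn (0.0504 to 0.125), the plate other than 053s left out (0.0565) and only deeper cells (0.0537).

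Against vascular muscle, none of the 7 members tested in pericytes was called, in a fit of 2 mice. Of 13022 genes 1.42% were called, 0.561% higher in pericytes and 0.86% higher in vascular muscle, and 1021 genes had an unadjusted p under 0.05. Dkk3 came nearest, at 193.1 and 233.05 CPM against 18.4 and 22.8 CPM, without overlap, with a log2 difference of 3.13 (SE 0.93, adjusted p = 0.0517). It passed under DESeq2 (adjusted p = 0.0268) and without plate 053s (0.0136), and Rspo3 passed under DESeq2 (0.0455).

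Blood endothelium held little of the members, and fibroblasts held more Dkk3 and Sfrp1 in the 2 mice with both classes. Dkk3 stood at 540 and 1161 CPM in fibroblasts and 31.1 and 32.4 CPM in blood endothelium of 19CB4:5 and 20GG79:6, a log2 difference of 4.66 (SE 0.81, adjusted p = 2.2e-06). Sfrp1 stood at 410.9 and 207.97 CPM against 26.9 and 22.2 CPM, a log2 difference of 3.60 (SE 1.10, adjusted p = 0.0419). Neither overlapped. They were 2 of 9 members tested, where 2.7% of 13274 genes were called, 1.37% higher in fibroblasts and 1.33% higher in blood endothelium, and the median log2 fold change was 4.66 over the tested members and -0.20 over all genes. The Sfrp1 call was lost with RLE scaling (adjusted p = 0.118) and with no filter on low counts (0.134). Without mouse 20GG79:6 both calls were lost (0.502 for Dkk3 and 0.363 for Sfrp1), and without 19CB4:5 that of Sfrp1 was (0.156). The fibroblasts of 19CB4:5 were 5 Cd81-panel cells, while those of 20GG79:6 were 67 subepithelial-panel and 5 Cd81-panel cells. The 2 mice thus stand for different mixes of the fibroblast subtypes.

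Lymphatic and blood endothelium could be compared for 3 members in 4 mice, and none passed. Dkk3 stood at 48.3, 161.6, 4.07 and 19.1 CPM in lymphatic and 0.666, 5.49, 4.18 and 2.37 CPM in blood endothelium of 17E61:24, 18CB109:10, 18CB39:3 and 19CB27:3. It was higher in 3 of 4 mice, with a log2 difference of 3.68 (SE 1.80, adjusted p = 0.445), and passed under DESeq2 (0.00263) and with 1 spread shared over all classes (0.0124). Among 10618 genes 1.88% were called, 0.942% in each direction, and 1301 had an unadjusted p under 0.05. Rspo3 fell under the filter on low counts there, so its lymphatic values above have no test.

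**Figure D2:**
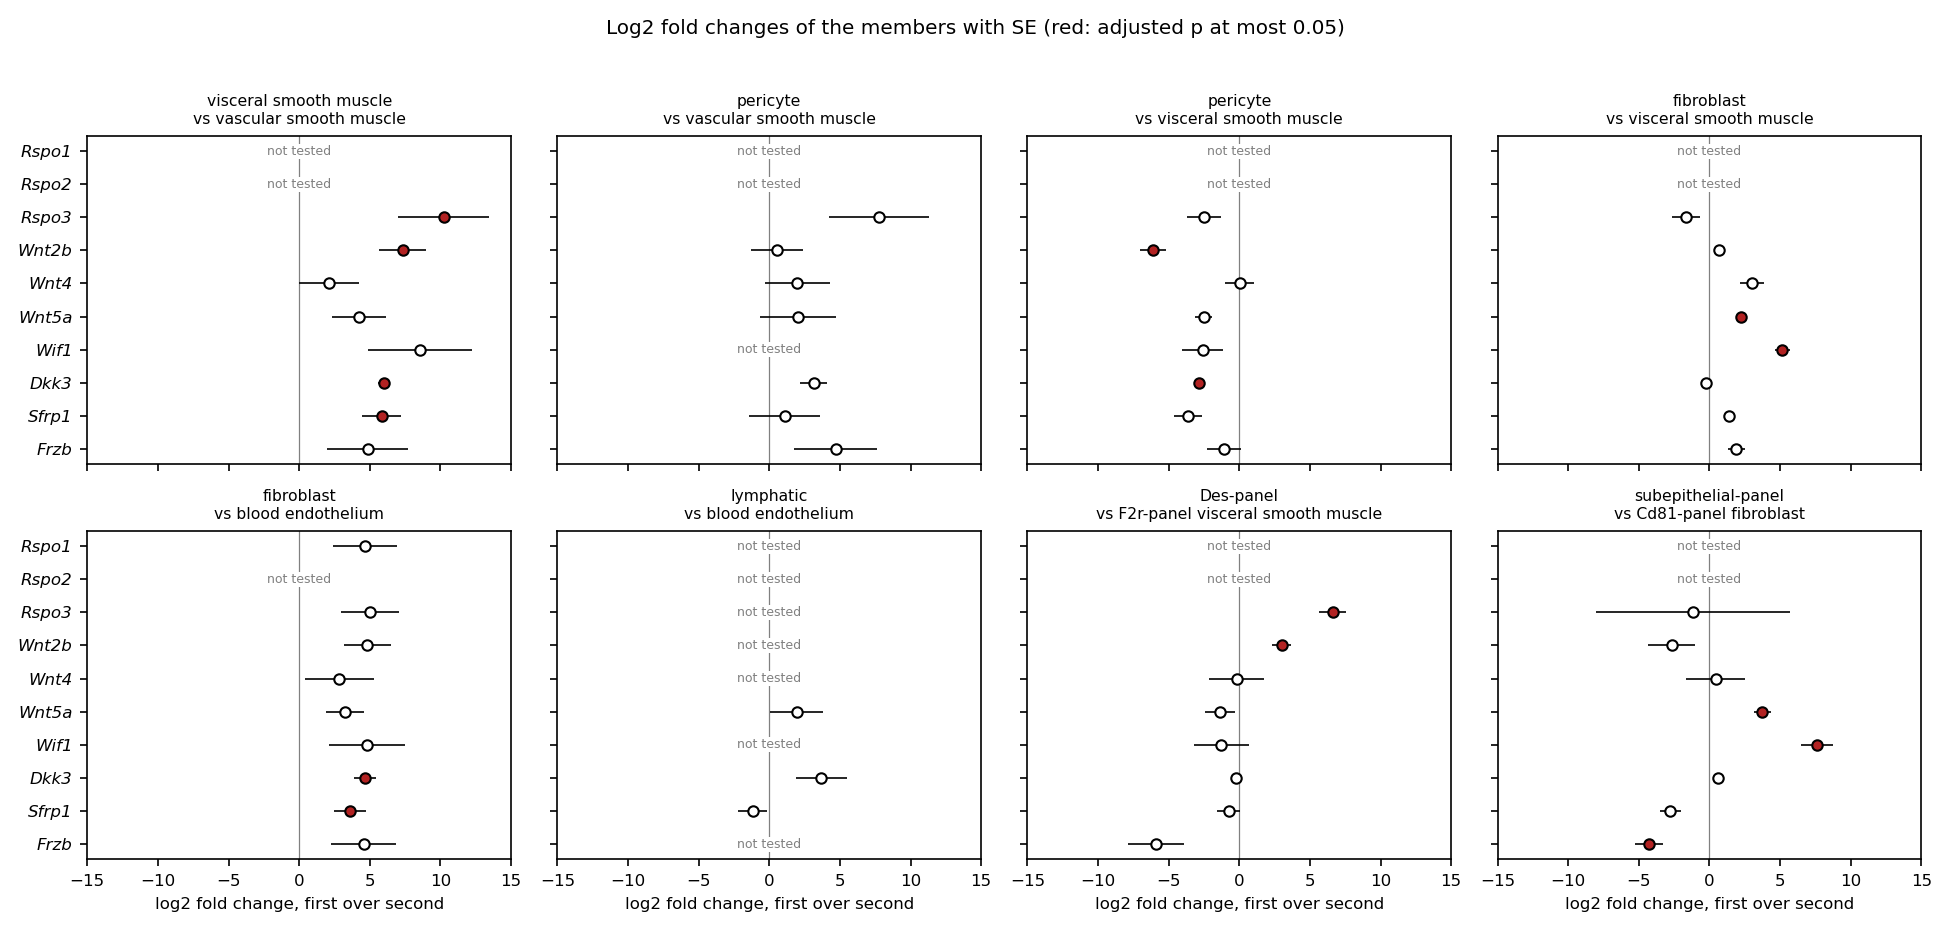
Log2 fold changes of the 10 members with SE in 8 comparisons, the first class named over the second, with red points at an adjusted p of at most 0.05 and members under the count filter written as not tested. Red points lie to the right for Rspo3 and Wnt2b in Des-panel against F2r-panel muscle and for Wnt5a and Wif1 in subepithelial-panel against Cd81-panel fibroblasts.

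Shares of cells with a count give the same members another view. In Des-panel muscle Rspo3 was counted in 5 of 8, 7 of 10 and 75 of 100 cells (75%, exact 95% interval 65.3 to 83.1%) of 20GG79:1, 20GG79:6 and 20GG95:3. In F2r-panel muscle of 20GG95:3 it was counted in 15.2% of the cells, and in vascular muscle of the same mouse, which served as the background, in 1 of 90. After each cell was thinned to 45388 gene counts, the share in Des-panel cells of that mouse was 65%. Wnt5a was counted in 37 of 38 and 65 of 67 subepithelial-panel cells. In F2r-panel muscle its share was 78.3% in 20GG79:1 and 78.7% in 20GG79:6 but 18% in 20GG95:3, while its level was 82.6, 89.9 and 56.4 CPM. Thinned, these shares were 33.6, 44.3 and 10.1%. Median gene counts per cell were 276438 in 20GG79:1, 206715 in 20GG79:6 and 128704 in 20GG95:3.

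Members were also counted together in single cells. Rspo3 and Wnt2b were both present in 3 of 8, 6 of 10 and 48 of 100 Des-panel cells, while 27 of the last 100 held only Rspo3 and 13 only Wnt2b. Wif1 was counted in 23 of 38 and 33 of 67 subepithelial-panel cells, and each of those cells also held Wnt5a. A further 14 and 32 cells held Wnt5a without Wif1.

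**Figure D3:**
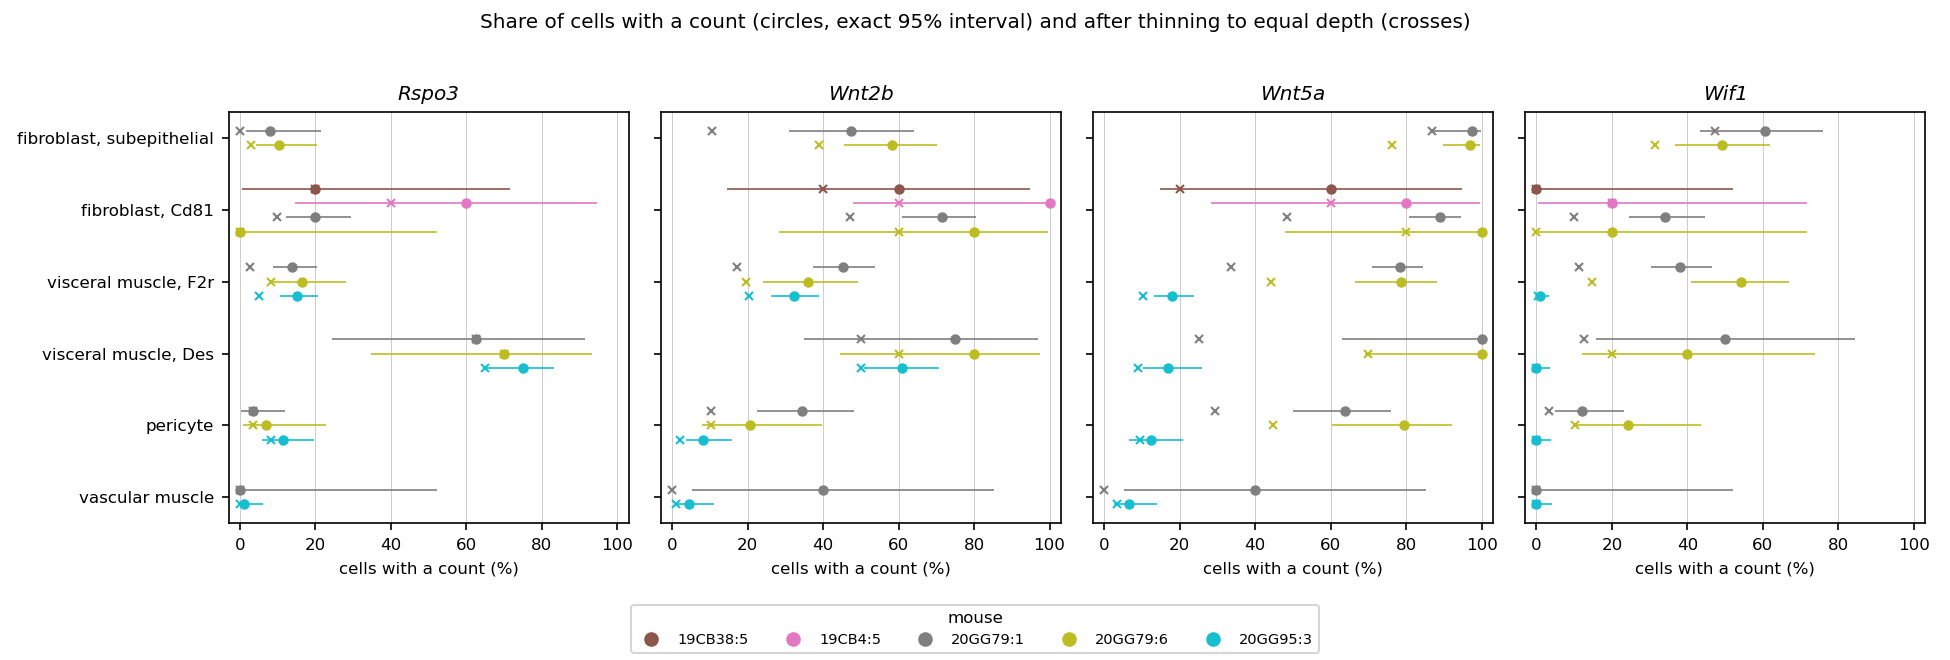
Share of cells with at least 1 count, in percent, of Rspo3, Wnt2b, Wnt5a and Wif1 in 6 classes, with 1 circle and exact 95% interval per mouse and a cross for the share after thinning each cell to the same depth. Rspo3 is found in 62.5 to 75% of Des-panel cells, and Wif1 in 38.2% and 54.1% of F2r-panel cells of mice 20GG79:1 and 20GG79:6 but in 0.922% of those of mouse 20GG95:3.

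The 83 other WNT pathway genes listed comprised ligands, inhibitors, receptors, secretion and matrix factors, targets and transducers. The alternatives were followed gene by gene for the 10 members only, so how far the calls of these other genes hold is not known. Visceral against vascular muscle called 4 of 59 tested higher and 2 lower, where 1.8% of all genes tested were called higher and 1.59% lower. Wls, which carries WNT proteins to the cell surface, stood at 682.3 and 517 CPM in visceral and 111.4 and 263.06 CPM in vascular muscle, with a log2 difference of 1.73 (SE 0.46, adjusted p = 0.00682). The WNT target Tnfrsf19 (log2 fold change 5.36, adjusted p = 2.0e-09), the co-receptor Ptk7 (4.84, 2.9e-06) and the polarity protein Vangl1 (2.69, 0.0499) rose with it. The receptor Fzd4 fell by 3.03 and the glypican Gpc4 by 2.54 (adjusted p = 0.00239 and 0.00729).

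Des-panel muscle, where Rspo3 and Wnt2b were highest, also held more Fzd1, a Frizzled receptor. It stood at 637, 1142 and 531 CPM against 93.1, 88.1 and 132.8 CPM in F2r-panel cells, a log2 difference of 3.08 (SE 0.49, adjusted p = 0.000878). Gpc3, a heparan sulfate proteoglycan, rose by 2.45 (adjusted p = 0.0131) and Tnfrsf19 fell by 2.63 (0.0261). Thus 3 of 55 listed genes were called there, where 0.451% of all genes tested were called. Fibroblasts held more Wnt2, a canonical ligand, than visceral muscle (49.8 and 9.55 against 0.205 and 0.0526 CPM, log2 fold change 7.69, adjusted p = 0.0412) and than blood endothelium (137.8 and 9.55 against 1.64 and 0 CPM, adjusted p = 0.0331).

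Sulf2, a sulfatase that trims the sugars of heparan sulfate, was higher in fibroblasts than in visceral muscle (log2 fold change 3.62, adjusted p = 0.0207) and blood endothelium (4.99, 0.00200), and within fibroblasts fell by 4.54 in subepithelial-panel cells (8.3e-05). Gpc6 was higher in fibroblasts than in visceral muscle (2.86, 0.0460), and Gpc3 was higher (5.74, 0.0287) and Fzd6 lower (-8.60, 0.0199) in fibroblasts than in blood endothelium. The targets Nkd1 and Tnfrsf19 were lower in fibroblasts than in visceral muscle (log2 fold changes -3.57 and -4.47, adjusted p = 0.00972 and 0.00920), and Nkd1 was lower in pericytes than in vascular muscle (-2.41, 0.000263). Pericytes held less Fzd1 (-2.73, 0.0359) and Tnfrsf19 (-4.93, 0.0278) than visceral muscle. These numbers are edgeR's log2 fold changes with Benjamini-Hochberg adjusted p. Of the 31 listed genes tested between the endothelia none was called, where 1.88% of all genes tested were called.

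As a description, the genes most like each member were taken over 35 sums of mouse and class among 10892 genes, by Pearson's r of log2(CPM + 1). The sums share mice and plates. Wnt2b was closest to Fgf10 (r = 0.94), Fgfr2 (0.88) and Fgf7 (0.87), which encode 2 fibroblast growth factors and a receptor. Wif1 was closest to Fam180a (0.93), Edar (0.91) and Cybrd1 (0.90), and Wnt5a to Ereg (0.86), Sdk1 (0.85) and Robo2 (0.84). Rspo3 was closest to Col8a2 (0.75), Foxp2 (0.74) and Adamts19 (0.73). Dkk3 was closest to the matrix genes Col5a2 (0.92) and Col6a1 (0.89) with Cercam (0.90) between them, Sfrp1 to Lrrn2 (0.89), Adam23 (0.87) and Efs (0.85), and Frzb to Hapln1 (0.84), Tenm3 (0.84) and Aldh1a3 (0.79). For the sparse members Rspo1 and Rspo2 and for Wnt4 the highest values were 0.88 with Ggt1, 0.64 with Zfp185 and 0.75 with Chsy3.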

How the data were processed

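The authors deposited raw counts per Ensembl gene for each cell, with no normalization, per the file headers and the values. Submitters' processing notes name bcl2fastq, Bowtie, Bowtie2, featureCounts and Subread and the builds GRCm38 and mm10, without versions or roles; strand use in counting is not given in the sources used here. Symbols came from GENCODE for GRCm38 and matched 46005 identifiers. Blocks of 92 spike-ins (1.88% of counts) were left out of totals, and 0 cells fell under 20000 gene counts or 1000 genes.

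Cells were clustered with scanpy 1.11.5 and igraph 0.11.9 on 2098 genes (20 principal components, 15 neighbours, Leiden resolution 1), with all WNT genes listed here left out. A cluster took the class with the highest marker score, and no doublet caller was run; 44 cells held markers of another class. The members, lists and marker panels were chosen with earlier results of these data known.

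Counts were summed per mouse and class (at least 5 cells) and compared within mice with edgeR 4.0.16 under R 4.3.3 (TMM, filterByExpr, trended dispersion, robust quasi-likelihood fit, mouse as a block), adjusted by Benjamini-Hochberg over the tested genes that clustering had not used, and called at an adjusted p of at most 0.05. The pairing is that of classes from the same mouse. Comparisons of 2 mice left 1 residual degree of freedom, so their SE and p lean on the spread that edgeR shares among genes, and the classes were made from the same cells. The contrasts share visceral, vascular, pericyte and fibroblast sums and are not independent of each other. The script was tested on simulated data. DESeq2 1.42.0 and the other alternatives are in the closing section. Without molecular identifiers, reads of 1 molecule cannot be told from those of several, so intervals (exact Clopper-Pearson, 95%) and floors (3 counts of a total) cover counting error only. Members were named in every comparison, and other WNT genes where they passed the threshold with the same direction in every mouse and a level of 20 CPM or more in the higher class, up to 4 by smallest p in each direction.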

Additional observations from a re-analysis of the deposited data

Results flagged for a closer look

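Among 18 groups of 4 to 6 mice with a highest level of at least 10 CPM, 5 had 1 mouse far from the others, where chance gives about 1 in 20 for normally distributed values, which these sums may not be. Rspo3 stood at 10.3 CPM in the blood endothelium of mouse 19CB27:3, with 1.95 CPM as the next value, and 1 of 57 cells gave 94.5% of those counts. Rspo3 stood at 133.5 CPM in the Cd81-panel fibroblasts of mouse 19CB4:5, with 17.4 CPM next, and Wnt4 at 297.8 CPM in those of mouse 19CB38:5, with 51.8 CPM next. Each of these sums holds 5 cells, and 1 cell gave 97.4% and 99.8% of the counts. In the epithelium class of mouse 20GG79:6, which holds 6 cells, Wnt5a stood at 649 CPM with 4.10 CPM next, and Dkk3 at 528 CPM with 74.4 CPM next. Fibroblast markers summed to 7052 CPM and visceral muscle markers to 4128 CPM in those 6 cells, and their part in the values was not tested.

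Wnt2b differed between the fibroblast subtypes in opposite directions in the mouse labelled female and the one labelled male. The series' design text speaks of males only. Subepithelial-panel minus Cd81-panel cells gave a log2 difference of -5.41 in female 20GG79:1 (2.30 against 139.1 CPM) and 0.72 in male 20GG79:6 (126.7 against 76.4 CPM). The difference was not tested, since each sex has 1 mouse, and sex and mouse cannot be told apart. It was the one opposite pair among 21 comparisons of members with at least 20 CPM.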

How the results depend on the processing

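Counts of genes past the threshold moved by over 1.5 times in 47 of 91 alternatives, and the log2 fold change of a member turned direction in 17 of 662, none of them for a member that had passed. Called members lost their call in 51 cases and members not called gained one in 27. Mean levels moved by over 1 SD in 21 of 750.
The counts that moved are given as percent of the genes tested. Visceral against vascular muscle called 3.39%, with 5.11% under DESeq2, 0.836% with no replicate block, 2.34% without the plate other than 053s and 0.138 to 0.152% with 1 mouse left out. Pericytes against vascular muscle called 1.42%, with 3.01% under DESeq2, 0.108% with no replicate block, 0.121% with 1 spread shared over all classes, 0.985% without plate 053s and 0.042% without the other plate. Leaving out either mouse there gave 0 with edgeR, where 1040 to 1110 genes had an unadjusted p under 0.05.
Pericytes against visceral muscle called 1.59%, with 10.9% under DESeq2, 1.37% of the 29260 genes left with no filter on low counts, 2.80% with no replicate block, 2.59% with the shared spread, 0.898% in deeper cells and 0.288 to 0.944% with 1 mouse left out. Fibroblasts against visceral muscle called 1.38%, with 8.11% under DESeq2, 0.895% under RLE scaling, 1.30% of the 28876 genes left with no filter, and 0 with either mouse left out by edgeR (1571 to 1641 at an unadjusted p under 0.05). Fibroblasts against blood endothelium called 2.7%, with 11.1% under DESeq2, 4.82% with the shared spread, and 0 to 3.03% with 1 mouse left out, the 0 without mouse 20GG79:6 (1367 at an unadjusted p under 0.05).
Lymphatic against blood endothelium called 1.88%, with 14.3% under DESeq2, 1.82% of the 23409 genes left with no filter, 3.02% with no replicate block, 6.00% with the shared spread, 1.19% in deeper cells and 1.23 to 1.58% with 1 mouse left out. Des-panel against F2r-panel muscle called 0.451%, with 3.92% under DESeq2, 0.153% with no replicate block, 0.121% without the plate other than 053s and 0.192 to 0.674% with 1 mouse left out. Subepithelial-panel against Cd81-panel fibroblasts called 0.43%, with 1.17% under DESeq2, 0.262% under RLE scaling, 0.0382% with the shared spread, 0 with no replicate block and 0 with either mouse left out (1056 to 1176 at an unadjusted p under 0.05).
The reversals were these, in log2 fold changes. Wnt4, pericytes against visceral muscle, went from 0.03 to -0.10 with no filter, -0.033 with no replicate block, -0.052 with the shared spread, -0.48 without the plate other than 053s and -0.27 to 0.40 with 1 mouse left out. Wnt4, Des-panel against F2r-panel muscle, went from -0.20 to 1.98 with no replicate block, 0.97 with the shared spread and -1.79 to 1.36 with 1 mouse left out. Wnt4 between the fibroblast subtypes went from 0.43 to -0.22 with no replicate block and -0.47 to 1.65 with 1 mouse left out. Wif1, Des-panel against F2r-panel muscle, went from -1.28 to 0.31 without plate 053s and -3.09 to 0.32 with 1 mouse left out, and Dkk3 there from -0.24 to between -0.44 and 0.054. With 1 mouse left out, Frzb in pericytes against visceral muscle went from -1.08 to between -2.05 and 0.013, and Wnt2b between the fibroblast subtypes from -2.66 to between -5.79 and 0.64. The cause was not tested.
RLE scaling moved the median log2 fold change of all genes from 0.59 to 0.44 in visceral against vascular muscle, -0.20 to 0.00 in fibroblasts against blood endothelium, -0.57 to -0.38 between the endothelia and -0.43 to -0.24 in Des-panel against F2r-panel muscle. With 1 mouse left of a pair, the lone sum was assumed to vary like the other classes. Clustering at resolution 0.5 gave the same sums, and so the same results, for both comparisons with vascular muscle and for the endothelia. It did not part the fibroblast subtypes, and deeper cells left too few mice for fibroblasts against blood endothelium, so these could not be fitted. The alternative without clusters 19 and 20 was chosen after seeing the data. Depth limits the sparse members, and sums of 5 to 10 cells rest on few molecules.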
